A study of Canis lupus familiaris with 6 samples.

Results

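The expression of Janus kinase (JAK), STAT and SOCS genes in whole blood was compared between dogs that had eaten casein phosphopeptide-selenium chelate (CPP-Se) for 30 days and dogs that had not. The genes were chosen by symbol, as the rows named JAK1, JAK2, JAK3, TYK2, STAT3, STAT4, STAT5B, STAT6 and SOCS1 among the 31512 genes of the expression table. SOCS3 was also on the list of 10 symbols, but no row of the table carries that name, and it was not analysed here. The samples were 1 whole blood library from each of 3 control and 3 CPP-Se dogs, all adult Beagles aged 1.5 years and sampled on day 30. Both groups ate the same maintenance food, after which the control group received 30 g of a snack without CPP-Se and the CPP-Se group received 30 g of a snack with 0.03% CPP-Se. CPP-Se is a chelate of selenium with the phosphopeptides released when milk casein is cut. The labels call the dogs of a group biological replicates, and the sources used here do not say how these dogs were picked from the larger feeding groups.

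Many cytokine receptors have no enzyme of their own and borrow a pair of Janus kinases, which sit on the inner part of the receptor. When the cytokine binds, the kinases phosphorylate each other, the receptor and a STAT protein, and the STAT proteins then pair up and enter the nucleus as transcription factors. The SOCS proteins are made in response to the same signal and block the kinases or the receptor, which closes a feedback loop. In blood this pathway carries the signals of interferons, of most interleukins of lymphocytes, and of the growth factors of granulocytes, red cells and platelets.

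Expression was given as FPKM, the fragments of a gene divided by its length and by the size of the library, so levels of different genes could be set side by side. In each dog the product of FPKM and length came in whole steps of 1 read, and between 6598173 and 8067034 reads on genes per dog were thereby recovered. CPP-Se replicate 2 stood apart from the other dogs. In this dog 8 hemoglobin genes took up 36.6% of all recovered reads, while the other dogs ranged from 48.7% to 55.9%, and the library size implied by its FPKM was 1.65 times its reads on genes, against 0.882 to 1.05 times. Differences between CPP-Se and control were tested as log2(FPKM + 1) in the 9847 genes whose mean reached 1 FPKM, with limma and Benjamini-Hochberg adjustment over all of them. All 9 JAK, STAT and SOCS genes passed this filter. A gene was called when its adjusted p was under 0.05 and its fold change at least 1.5, the thresholds of the study.

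None of the 9 genes was called, against 0.0305% of all genes tested. JAK3, STAT4 and SOCS1 had higher FPKM in every CPP-Se dog than in any control dog, and STAT3 and STAT6 had lower FPKM in every CPP-Se dog. Whole blood RNA mixes cell types, and for each of these genes fewer or more cells of a type and less or more RNA per cell cannot be told apart. The groups did not overlap in 5 of the 9 genes, while they did not overlap in 23.0% of all genes tested. By direction, the count was 3 of 9 with CPP-Se higher, against 10.4% of all genes, and 2 of 9 with CPP-Se lower, against 12.6%. An unadjusted p under 0.05 (limma) was found for JAK3, STAT3 and SOCS1, which is 3 of 9 against 16.0% of all genes. With 1 dog left out this count was between 1 and 4, and it was 1 without control replicate 2 (JAK3), without control replicate 3 (SOCS1) and without CPP-Se replicate 1 (STAT4). Without CPP-Se replicate 2, an alternative chosen after seeing the data, the groups did not overlap in 6 genes, JAK2 being added, but the share over all genes tested was then also larger, at 34.2%. The lowest adjusted p among the 9 genes was 0.253 and the highest 0.915 (limma with Benjamini-Hochberg adjustment). Neither limma-voom nor a negative binomial model, both run on the recovered reads, called any of the 9. The median log2 difference of the 9 genes was 0.05, against -0.0043 for all genes tested.

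**Figure D1:**
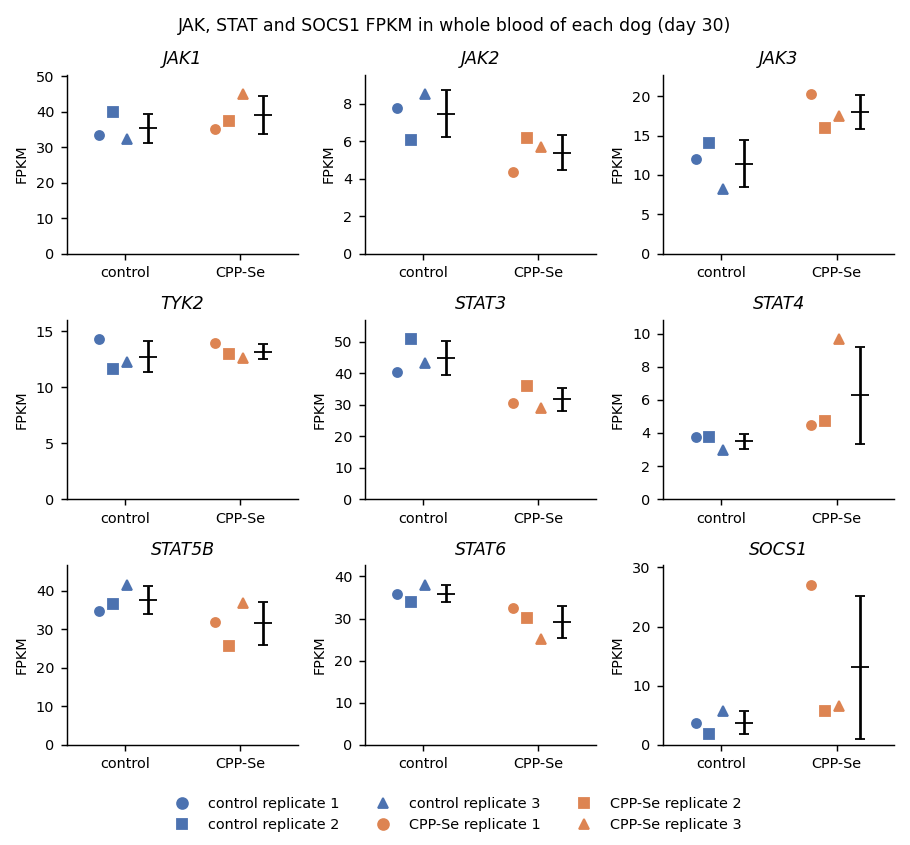
FPKM (vertical axes, from 0) of each gene in the 3 control dogs (blue) and the 3 CPP-Se dogs (orange), with the symbol giving the replicate number and the black bar the mean ± SD of a group. The groups are separate for JAK3, STAT3, STAT4, STAT6 and SOCS1 and overlap for the other genes. The high CPP-Se mean of SOCS1 rests on replicate 1 and that of STAT4 on replicate 3.

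In order of their mean FPKM over the 6 dogs, STAT3 (38.2), JAK1 (37.2), STAT5B (34.5) and STAT6 (32.6) formed an upper set whose ranges overlapped. These genes lay above at least 87.5% of the genes tested. STAT6 was 2.22 times the next gene, JAK3 (14.7), and was higher than it in 6 of 6 dogs, with no overlap of their ranges. This was the only step between neighbours in the order without overlap. JAK3 was followed by TYK2 (12.9), SOCS1 (8.43), JAK2 (6.43) and STAT4 (4.88), with ranges that overlapped at each step. The place of SOCS1 rested on CPP-Se replicate 1, without which, in a comparison chosen after seeing the data, its mean was 4.70 FPKM, below JAK2 (6.85) and STAT4 (4.97). The annotated lengths ran from 594 bases for SOCS1 to 6857 bases for JAK2, so the fewest reads stood behind SOCS1, with 7 to 103 per dog, while JAK1 had 1169 to 2593.

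Of the kinases, JAK3 differed most between the groups. JAK3 works with the common gamma chain of the receptors for IL-2, IL-4, IL-7, IL-15 and IL-21 and is found mainly in lymphocytes and other blood cells. The gene (ENSCAFG00000015159) lies on chromosome 20 from 45050526 to 45072805, in the dog genome of Ensembl release 100 that the study used, as for the other positions here. Its FPKM were 11.97, 14.1 and 8.19 in replicates 1 to 3 of the control, and 20.3, 16.0 and 17.5 in the same order under CPP-Se. Each CPP-Se dog was above each control dog, by 1.91 FPKM between the nearest 2 dogs. The means were 11.4 ± 2.99 FPKM and 18.0 ± 2.18 FPKM (SD, n = 3 dogs in each group, as elsewhere). The log2 fold change was 0.63 with a standard error of 0.23 and a 95% interval from 0.11 to 1.16, and the Benjamini-Hochberg adjusted p of limma was 0.253.

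JAK2, which serves the receptors for erythropoietin, thrombopoietin, GM-CSF and G-CSF and also the interferon gamma receptor, had lower mean FPKM in the CPP-Se group. JAK2 (ENSCAFG00000002102, chromosome 1, 93142635 to 93435997) had 7.78, 6.08 and 8.54 FPKM in control dogs against 4.35, 6.16 and 5.70 FPKM in dogs fed CPP-Se. The groups overlapped because CPP-Se replicate 2 was just above control replicate 2. The log2 fold change was -0.40 (standard error 0.20, 95% interval -0.87 to 0.07, limma, Benjamini-Hochberg adjusted p = 0.380). The table describes this gene model with a domain of RNA terminal phosphate cyclase beside the kinase domain, so it may hold part of another gene, and reads from that part cannot be told apart from JAK2 reads.

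JAK1 and TYK2, which serve the interferon receptors and many interleukin receptors and are made in most cell types, were close in both groups. JAK1 (ENSCAFG00000018615, chromosome 5, 45251653 to 45408571) had 33.5, 39.9 and 32.4 FPKM in control dogs against 35.0, 37.3 and 45.1 FPKM in dogs fed CPP-Se. Its log2 fold change was 0.14, with a 95% interval from -0.29 to 0.57, and it lay between 0.039 (without CPP-Se replicate 3) and 0.23 (without control replicate 2) when 1 dog was left out. TYK2 (ENSCAFG00000017834, chromosome 20, 50748329 to 50769216) had 14.3, 11.6 and 12.2 FPKM in control dogs against 13.9, 13.0 and 12.6 FPKM in dogs fed CPP-Se, and was the gene with the least spread in the CPP-Se group. Its log2 fold change was 0.05, with a 95% interval from -0.34 to 0.44, and its sign turned without control replicate 2 (-0.0086). PDE4A overlaps TYK2 on the other strand and held 297 reads over the 6 dogs, against 2598 on TYK2. The use of strand in the counting is not given in the sources used here.

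**Figure D2:**
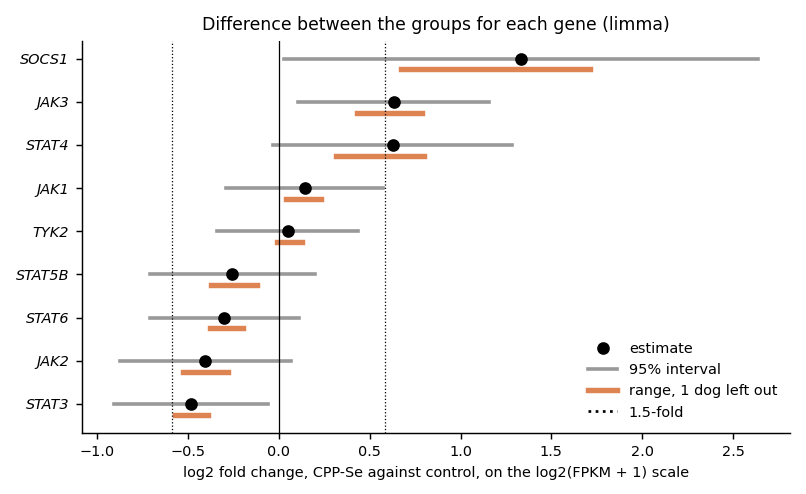
Log2 fold change of each gene (horizontal axis, CPP-Se against control on the log2(FPKM + 1) scale) with its 95% interval in grey and, in orange, the range when each dog was left out in turn. The dotted lines mark a 1.5-fold difference. The intervals of SOCS1, JAK3 and STAT3 exclude 0, and the estimates of SOCS1, JAK3 and STAT4 lie beyond 1.5-fold.

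Among the STAT genes, STAT3 and STAT6 were lower in the CPP-Se dogs and STAT4 was higher. STAT3 carries the signals of IL-6, IL-10 and G-CSF and is abundant in myeloid cells. STAT3 (ENSCAFG00000015213, chromosome 9, 20539697 to 20612672) had 40.2, 50.8 and 43.2 FPKM in control dogs against 30.5, 35.8 and 28.8 FPKM in dogs fed CPP-Se. The highest CPP-Se dog, replicate 2, was below the lowest control dog, replicate 1. The means were 44.7 ± 5.44 and 31.7 ± 3.61 FPKM, a difference of -29.1%. The log2 fold change was -0.48 (standard error 0.18, 95% interval -0.91 to -0.06, limma, Benjamini-Hochberg adjusted p = 0.270).

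STAT6, the transcription factor of the IL-4 and IL-13 receptors, showed a smaller difference. STAT6 (ENSCAFG00000000163, chromosome 10, 1233691 to 1247075) had 35.8, 34.0 and 38.0 FPKM in control dogs against 32.4, 30.0 and 25.0 FPKM in dogs fed CPP-Se. The groups were apart by 1.56 FPKM, less than the SD within the CPP-Se group of 3.77 FPKM. The log2 fold change was -0.30, with a 95% interval from -0.71 to 0.11 (limma, Benjamini-Hochberg adjusted p = 0.455), and without CPP-Se replicate 3 it was -0.20.

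STAT4 carries the IL-12 signal in T cells and natural killer cells and had the lowest level of the STAT genes. STAT4 (ENSCAFG00000009797, chromosome 37, 1566585 to 1829894) had 3.76, 3.75 and 2.98 FPKM in control dogs against 4.45, 4.70 and 9.66 FPKM in dogs fed CPP-Se. All CPP-Se dogs were above the control dogs, but replicate 3 stood far above the other 2. The log2 fold change was 0.63 (standard error 0.28, 95% interval -0.03 to 1.28, limma, Benjamini-Hochberg adjusted p = 0.336), and without CPP-Se replicate 3 it was 0.31.

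STAT5B, which acts below the receptors for IL-2, growth hormone and several blood cell growth factors, overlapped between the groups. STAT5B (ENSCAFG00000015509, chromosome 9, 20691483 to 20716485) had 34.6, 36.4 and 41.5 FPKM in control dogs against 31.9, 25.7 and 36.9 FPKM in dogs fed CPP-Se. Its log2 fold change was -0.25, with a 95% interval from -0.71 to 0.20, and it was -0.12 without CPP-Se replicate 2 and -0.37 without CPP-Se replicate 3. STAT5A, its close copy, lies between STAT3 and STAT5B on the same chromosome (20617151 to 20638103), and the handling of reads that fit both genes is not given in the sources used here. STAT5A had 20.5 to 27.6 FPKM in the control dogs and 18.9 to 25.4 FPKM in the CPP-Se dogs, with a log2 fold change of -0.10.

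SOCS1 had the largest log2 fold change of the 9 genes and also the largest spread. SOCS1 binds JAK1, JAK2 and TYK2 directly and blocks their activity, and is switched on by interferons and by lymphocyte cytokines. SOCS1 (ENSCAFG00000018916, chromosome 6, 31509268 to 31511557) had 3.70, 1.85 and 5.65 FPKM in control dogs against 27.1, 5.68 and 6.60 FPKM in dogs fed CPP-Se. CPP-Se replicate 1 was far above all other dogs, and CPP-Se replicate 2 was above control replicate 3 by only 0.0264 FPKM. These values rested on 15, 7 and 27 reads in control dogs against 103, 45 and 24 reads in dogs fed CPP-Se. The log2 fold change was 1.33 (standard error 0.56, 95% interval 0.03 to 2.64, limma, Benjamini-Hochberg adjusted p = 0.303). Without CPP-Se replicate 1 it was 0.67, and the adjusted p was 0.483. With the negative binomial model the adjusted p of SOCS1 was 0.0895, the lowest of any of the 9 genes under any setting, and with limma-voom on the same reads it was 0.413.

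The ratio of a pair of genes within 1 library does not depend on the scaling between libraries. The ratio of JAK3 to JAK2 was 1.54, 2.32 and 0.959 in control dogs against 4.67, 2.60 and 3.08 in dogs fed CPP-Se. All CPP-Se dogs were thus above the control dogs, with a difference of 1.15 on the log2 scale (exact permutation test, two-sided, p = 0.1, which is the smallest p that 3 dogs against 3 allow). The ratio of STAT4 to STAT3 was 0.0937, 0.0739 and 0.0690 in control dogs against 0.146, 0.131 and 0.335 in dogs fed CPP-Se, also without overlap. Its difference was 1.25 on the log2 scale (exact permutation p = 0.1), and 0.83 without CPP-Se replicate 3. The ratios of JAK1 to JAK2 and of STAT6 to STAT3 overlapped between the groups, with differences of 0.61 and 0.19 on the log2 scale (exact permutation p = 0.2 and 0.6). After Benjamini-Hochberg adjustment over these 4 ratios, the exact permutation p were 0.2, 0.2, 0.267 and 0.6 in the order given. JAK3 and JAK2 had the highest and lowest log2 fold changes of the kinases, as did STAT4 and STAT3 among the STAT genes. The separation of these ratios therefore largely restates the differences of the single genes. The caution on the JAK2 gene model holds for its ratios too.

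The make-up of each family was also described, which was chosen after the values were seen and was not tested. JAK1 made up 47.6% to 55.7% of the summed FPKM of the 4 kinases in all 6 dogs. JAK3 made up 17.7%, 19.7% and 13.4% in control dogs against 27.6%, 22.1% and 21.7% in dogs fed CPP-Se. JAK2 made up 8.48% to 13.9% in the control dogs and 5.91% to 8.50% in the CPP-Se dogs, and TYK2 overlapped widely. JAK3 thus held a larger share of the kinase transcripts in every CPP-Se dog, and the shares of JAK2 met at CPP-Se replicate 2 and control replicate 2.

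Over 6 STAT genes, with STAT2 and STAT5A added to the 4 genes above, STAT3 made up 25.6%, 29.1% and 26.2% of the sum in control dogs against 23.2%, 25.5% and 20.9% in dogs fed CPP-Se. The groups were separate, but the share of CPP-Se replicate 2 was close to that of control replicate 1. STAT4 made up 1.81% to 2.40% in the control dogs and 3.35% to 7.01% in the CPP-Se dogs. The shares of STAT5B (18.3% to 26.7% over all dogs), STAT6 (18.2% to 24.7%), STAT5A (12.5% to 18.1%) and STAT2 (10.1% to 13.4%) overlapped between the groups. The summed FPKM of the 6 STAT genes was 165 ± 8.71 in the control group and 137 ± 4.59 in the CPP-Se group. The sum of the 4 kinases lay the other way, at 66.9 ± 5.21 FPKM in control dogs and 75.6 ± 4.62 FPKM under CPP-Se, and neither sum overlapped between the groups.

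**Figure D3:**
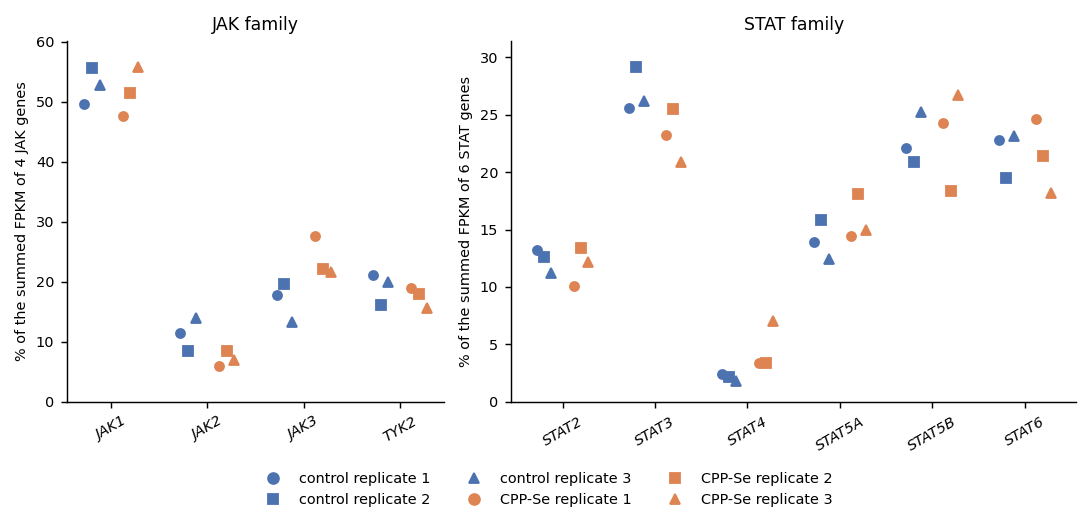
Share of each gene in the summed FPKM of its family (vertical axes, from 0, in percent) in each control dog (blue) and CPP-Se dog (orange), for the 4 kinases on the left and 6 STAT genes on the right. JAK3 and STAT4 take larger shares in every CPP-Se dog than in any control dog, and STAT3 takes smaller ones.

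The other genes of the pathway were taken from a list of 66 symbols sorted by role, of which 61 had a row and 48 passed the filter. None of the 48 was called by limma (lowest adjusted p = 0.138), while 17 of the 48 had an unadjusted p under 0.05, against 16.0% of all genes tested. By direction, 5 of the 48 were higher under CPP-Se, against 6.87% of all genes tested, and 12 of the 48 lower, against 9.1%. The groups did not overlap in 24 of the 48, against 23.0% of all genes tested, in 8 with CPP-Se higher and in 16 with CPP-Se lower. The median log2 difference of the list was -0.25. The negative binomial model called 9 of the 48, against 4.3% of all genes tested. These were BCL2L1, BCL6, CBL, CSF2RA, CSF2RB, CSF3R, IL10RA, IL2RB and PTPN1, which are named here after their values were seen. Except for CBL they are also on the study's own list of changed genes from the same libraries, so their directions are not independent evidence.

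Of the 18 receptor genes tested, 9 had a higher and 9 a lower mean under CPP-Se. IL2RB, IL2RG and IL7R, chains of lymphocyte receptors that use JAK1 and JAK3, had higher means in the CPP-Se group, and IL4R a lower one. IL2RB, the beta chain of the IL-2 and IL-15 receptors, had 23.1, 30.1 and 21.4 FPKM in control dogs against 51.5, 34.6 and 46.5 FPKM in dogs fed CPP-Se (limma, Benjamini-Hochberg adjusted p = 0.184). IL2RG, the common gamma chain itself, had a log2 fold change of 0.40, also without overlap between the groups, and IL7R one of 0.44 with overlap. IL4R, which signals through STAT6, had a log2 fold change of -0.29 with overlap.

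CSF3R, IL10RA, CSF2RB, IL6R and IFNGR1, all of which are made in myeloid cells, had lower FPKM in every CPP-Se dog than in any control dog. CSF3R, the G-CSF receptor, which signals through JAK2 and STAT3, had 912, 711 and 1084 FPKM in control dogs against 458, 599.7 and 400.3 FPKM in dogs fed CPP-Se. Its groups did not overlap, with a log2 fold change of -0.89 (limma, Benjamini-Hochberg adjusted p = 0.196). IL10RA, a chain of the IL-10 receptor, which signals through JAK1, TYK2 and STAT3, averaged 21.2 ± 2.49 FPKM in control dogs and 10.4 ± 1.07 under CPP-Se, with a log2 fold change of -0.96. CSF2RB, the shared chain of the GM-CSF, IL-3 and IL-5 receptors, had one of -0.68, IL6R one of -0.45 and IFNGR1, a chain of the interferon gamma receptor, one of -0.50, each without overlap. IL6ST, the chain that passes on the IL-6 signal, was low but had higher FPKM in every CPP-Se dog, with 0.778 ± 0.2496 and 1.57 ± 0.364 FPKM. EPOR, the erythropoietin receptor, overlapped between the groups.

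The 12 other inhibitors and adaptors tested had lower means in the CPP-Se group in 11 cases, while 4963 of the 9847 genes tested had lower log2 means. Their median log2 difference was -0.29, and the groups did not overlap in 4 of them, all with CPP-Se lower, against 12.6% of all genes tested. PTPN1, a phosphatase that acts on JAK2 and TYK2, averaged 68.1 ± 1.68 FPKM in control dogs and 38.4 ± 6.21 under CPP-Se, with a log2 fold change of -0.82. PTPN6, the phosphatase SHP-1 of blood cells, had a log2 fold change of -0.43 with overlap (limma, Benjamini-Hochberg adjusted p = 0.355). CBL, a ubiquitin ligase that removes activated receptors and kinases, had 28.7, 27.2 and 30.3 FPKM in control dogs against 17.0, 21.2 and 16.1 FPKM in dogs fed CPP-Se. Of the 4 other SOCS genes tested, 2 did not overlap between the groups, against 23.0% of all genes tested, SOCS6 with CPP-Se higher (log2 fold change 0.56) and SOCS7 with CPP-Se lower (-0.45), both named here after their values were seen. CISH, a feedback inhibitor switched on by STAT5, had 14.7 ± 5.32 and 16.5 ± 4.48 FPKM, and it and SOCS5 overlapped.

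The 12 target genes tested were split evenly, with 6 higher and 6 lower under CPP-Se. The groups did not overlap in 7 of the 12, in 3 with CPP-Se higher and in 4 with CPP-Se lower. Over all genes tested these shares were 23.0%, 10.4% and 12.6%. BCL2L1, a survival gene that STAT5 switches on, had 34.8, 44.6 and 33.0 FPKM in control dogs against 72.5, 53.9 and 91.3 FPKM in dogs fed CPP-Se, a log2 fold change of 0.92 without overlap. BCL6, a transcriptional repressor, had a log2 fold change of -0.92, MCL1, another survival gene, one of -0.58 and IRF1, an interferon target, one of -0.22, each without overlap. JUNB, an early response transcription factor, was also lower without overlap (-0.55). On the higher side, PIM2, a survival kinase, had a log2 fold change of 0.74 and MYC, a transcription factor of cell growth, one of 0.42, both without overlap, and JUNB, PIM2 and MYC are named here after their values were seen. PIM1, a kinase induced by STAT3 and STAT5, had 118 ± 32.4 and 86.2 ± 29.0 FPKM and overlapped.

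**Figure D4:**
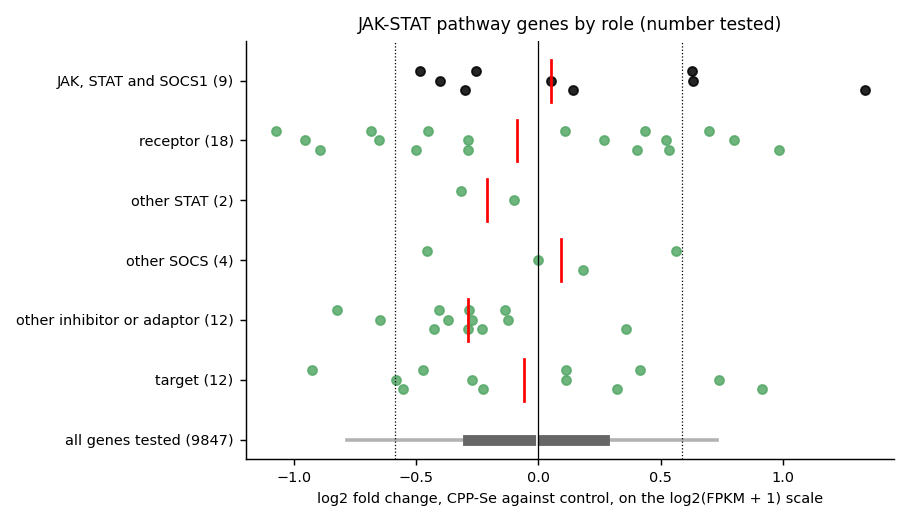
Log2 fold change (horizontal axis, CPP-Se against control on the log2(FPKM + 1) scale) of the 9 JAK, STAT and SOCS1 genes (black) and of the other pathway genes by role (green), with red lines at the medians. The bottom row shows the middle of all 9847 genes tested (thick bar, quartiles; thin bar, 5th to 95th percentile). Receptors and targets spread to both sides of 0, and 11 of 12 other inhibitors and adaptors lie below it.

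Marker genes of the blood cell types, without the genes on the study's own list, were set beside the results with no test. The list means of the B cell, natural killer and cytotoxic cell, and monocyte markers were separate between the groups, but many single genes overlapped. All CPP-Se dogs were above all control dogs in 6 of 12 B cell markers and 5 of 13 natural killer and cytotoxic markers. The share over all genes tested was 10.4%. All CPP-Se dogs were below all control dogs in 4 of 11 monocyte markers, against 12.6% of all genes tested. No gene of these lists was separate in the other direction. The mean log2(FPKM + 1) of the 12 B cell markers in the table was 2.28 to 2.53 in the control dogs and 2.70 to 3.13 in the CPP-Se dogs, and 11 of the 12 had higher means in the CPP-Se group. For the 13 markers of natural killer and cytotoxic cells it was 1.14 to 1.54 and 1.74 to 2.25, with 12 of 13 higher. The 15 T cell markers overlapped, at 2.52 to 3.25 and 3.15 to 3.60, with 14 of 15 higher.

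The 11 monocyte markers had a mean of 3.72 to 3.88 in the control dogs and 3.12 to 3.56 in the CPP-Se dogs, and only 2 of the 11 had higher means in the CPP-Se group. In summed FPKM these lists were at 284 to 404 and 428 to 468 for B cells, 26.7 to 43.4 and 48.4 to 91.9 for natural killer and cytotoxic cells, 96.4 to 204 and 198 to 262 for T cells, and 367 to 513 and 261 to 299 for monocytes. CD36, a monocyte marker, was listed at 0 in all 6 dogs. The 9 neutrophil markers overlapped, with a mean log2(FPKM + 1) of 5.99 to 6.30 in the control dogs and 5.75 to 6.40 in the CPP-Se dogs, as did the markers of platelets, red cells, and eosinophils and basophils. The B cell and cytotoxic markers thus differed in the same direction as JAK3, STAT4 and IL2RB, and the monocyte markers in the same direction as STAT3, STAT6, CSF3R and IL10RA. Their part in these results was not tested.

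**Figure D5:**
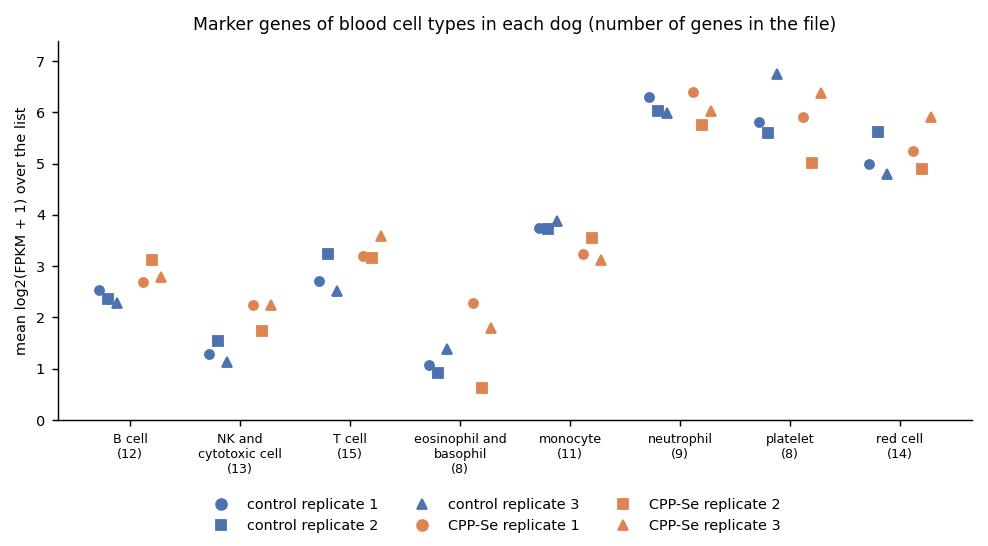
Mean log2(FPKM + 1) of the marker genes of each blood cell type (vertical axis, from 0) in each control dog (blue) and CPP-Se dog (orange), with the number of genes in the table in parentheses. The dogs of the groups are separate for B cells, natural killer and cytotoxic cells, and monocytes, and overlap for the other lists.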

How the data were processed

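Whole blood RNA of 6 dogs was enriched for poly-A mRNA, prepared with the NEBNext Ultra kit and sequenced as paired ends on an Illumina NovaSeq. Per the labels and the study's methods, the authors filtered reads with fastp 0.19.7, aligned them to the Ensembl release 100 dog genome with HISAT2 2.0.5, and counted them with featureCounts 1.5.0-p3. The authors deposited FPKM values with gene lengths in bases, and the library size behind these FPKM is not given in the sources used here. The implied library sizes were 3.52% to 5.05% above those from a median-of-ratios scaling of the recovered reads, so the deposited FPKM carry nearly that scaling between dogs. Recovered reads were whole for 100% of the values within a tolerance of 0.02 reads. Over the tested genes, the median of the mean reads was 80.7.

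Groups and replicate numbers came from the sample titles. Genes were tested on log2(FPKM + 1) with lmFit and eBayes with an intensity trend (limma 3.58.1 in R 4.3.3), two-sided, without pairing, and the pseudocount lowers the fold change of genes with few FPKM. Tables were made with Python 3.11.15, numpy 2.4.6, pandas 2.3.3 and scipy 1.17.1, and figures with matplotlib 3.10.9. The fits were tested on simulated data with changed genes. All 9 genes were named, with a set of pathway genes fixed by role. Some genes are not reported here. The genes, lists and tests were chosen with earlier results of these data known.

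The alternatives were a pseudocount of 0.1, other filters, other scalings, array weights, robust eBayes and eBayes without trend, a block for the replicate number, limma-voom and a negative binomial model on recovered reads, and each dog left out in turn. Same-numbered dogs are not said to be related. No protein or promoter sequence was used here.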

Additional observations from a re-analysis of the deposited data

How the results depend on the processing

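None of the 9 JAK, STAT and SOCS genes was called under any of the 19 alternatives, and 169 of 171 log2 fold changes kept their direction. The 2 exceptions were of TYK2, at -0.0059 with array weights and -0.0086 without control replicate 2, in a range of -0.0086 to 0.13 with each dog left out. The number of genes called over all 9847 tested, 3, was 0 with a pseudocount of 0.1 and with no filter, 12 with a common sum of FPKM, 1 with limma-voom, 423 with the negative binomial model, and 0 to 14 with each dog left out in turn, the highest without CPP-Se replicate 2. The cause was not tested. The number of other pathway genes called was 9 with the negative binomial model and 0 otherwise. With replicate number as a block, 1 gene was called. Same-numbered dogs did not deviate together, with correlations of their deviations across genes of 0.016, -0.090 and -0.043, so the numbers were not taken as pairs. Scaling to a common sum of FPKM moved the median log2 difference of all genes to 0.13, against which JAK1 stood at 0.30 and STAT3 at -0.33. Leaving out CPP-Se replicate 1 lowered SOCS1 most, and leaving out CPP-Se replicate 3 lowered STAT4 most. SOCS1 rested on 7 to 103 reads per dog, and its unadjusted p was 0.046 with limma but 0.103 with limma-voom and 0.0058 with the negative binomial model, both on recovered reads and before adjustment over all genes, and 0.114 with limma without CPP-Se replicate 1. It was 0.063 with no filter. The unadjusted limma p of STAT3 was 0.031, but 0.379 with a common sum of FPKM and 0.105 with quantile normalization. With a common sum without hemoglobin it was 0.247. Under both common sums STAT4 had an unadjusted limma p under 0.05 (0.037 and 0.021).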

Other observations

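The 10 cytokine genes of the pathway that were looked up had at most 20 reads in any of these libraries, and none of them passed the filter on FPKM. IL6, CSF2 and CSF3 had 0 reads in all 6 dogs, where a floor of 3 reads per library covers counting error only. IFNG and LIF had 4 reads each in CPP-Se replicate 1 and 0 in the other 5 dogs. IL10 had 9 reads in CPP-Se replicate 2, 1 in CPP-Se replicate 3 and 0 in the others. IL15, which signals through IL2RB and JAK3, had 2.08, 1.04 and 0.943 FPKM in control dogs against 0.444, 0.213 and 0.620 FPKM in dogs fed CPP-Se, from 3 to 15 reads per dog. OSM, a STAT3 activating cytokine of myeloid cells, had 1.05, 1.501 and 0.298 FPKM in control dogs against 1.122, 0.611 and 0.235 FPKM in dogs fed CPP-Se, from 3 to 20 reads per dog. SOCS2, a feedback inhibitor switched on by STAT5, had 0, 0 and 0.111 FPKM in control dogs against 0.279, 0.469 and 0.876 FPKM in dogs fed CPP-Se, from 0 to 7 reads per dog. Reads of CPP-Se replicate 2 stand for lower FPKM than the same reads of other dogs, since the library size implied by its FPKM was larger. These genes were described after their values were seen and were not tested.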
